A study of Homo sapiens with 6 samples.

Results

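The genes described here are the DNA replication machinery and 3 E2F transcription factors, 55 genes in all, taken as a fixed list of gene symbols from the 58336 gene IDs in the tables. Each symbol matched 1 human Ensembl gene ID in GENCODE release 29, and all 55 passed the filter on low counts. The list was drawn up by function, from helicase loading through the replication fork to nucleotide synthesis. RNA-seq libraries came from KGN, an established line from a human ovarian granulosa cell tumour. The reverted clones carry FOXL2 WT/WT after CRISPR/Cas9 removal of the C134W change, and the mutant clones are FOXL2 WT/C134W with no editing named in their labels. All cells were grown in DMEM-F12 with serum, and RNA was taken 30 h after a transfection whose agent the labels do not give. Each genotype has 3 libraries, named 44a, 4.72 and 4.72-44a for WT/WT and 3.11, 44b and 3.11-44b for WT/C134W. The last name of each trio joins the other names and may stand for a mix, so the test used the 4 libraries that name 1 clone, 2 per genotype. Whether a difference goes with the genotype, the editing or the single clone cannot be told apart with 2 clones on each side.

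Before a cell copies its DNA, the origin recognition complex, CDC6 and CDT1 load the MCM helicase ring onto origins in G1, a step called licensing, and geminin (GMNN) blocks CDT1 once S phase has begun. CDC45 and the GINS complex then turn the ring into the active helicase, and polymerases alpha, delta and epsilon, the clamp PCNA and its loader copy both strands. Many of these genes are transcribed at the G1 to S boundary by E2F factors, which the retinoblastoma protein holds back until cyclin-dependent kinases release them. Genes of G2 and mitosis peak later and are bound through another promoter element, the cell cycle genes homology region (CHR).

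The promoter windows of these genes are shown first, because an E2F motif is a feature that many of them share beyond their function. The windows come from RefSeq (build GRCh38.p14) and run from 250 bases before to 50 after the annotated start. A window was found for 48 of the 55 genes. Of these, 24 held at least 1 of the E2F motifs TTTCCCGC, TTTGGCGC, TTTCGCGC or TTTGCCGC on either strand, which is 50%, against 3.3% of all 35116 windows in the table and 5.3% of the 10760 windows of genes tested. The CHR motif TTTGAA, on either strand, was in 1 of the 48 windows, that of RRM1. It was in 15.2% of all windows and 9.9% of the windows of genes tested. This motif was chosen after seeing the data. In a list of 25 G2 and M phase genes, 13 of 19 windows held the CHR motif (68.4%) and 3 held an E2F motif (15.8%). These are matches of letters and do not show that a factor was bound in these cells.

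**Figure D1:**
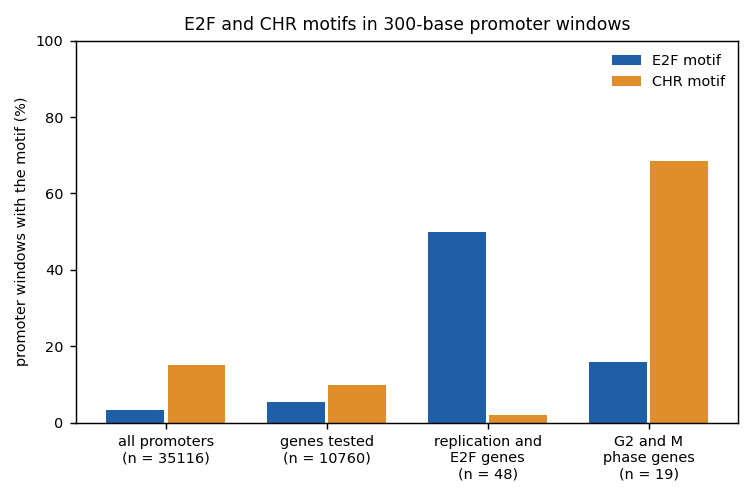
Share of 300-base RefSeq promoter windows, in percent, that hold an E2F motif (blue) or the CHR motif (orange), for all windows, windows of genes tested, the replication and E2F genes and the G2 and M phase genes, with the number of windows under each. The E2F motif was in 50% of the windows of the replication genes and the CHR motif in 68.4% of those of the G2 and M phase genes.

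The stretches below show 30 bases around the E2F motif nearest the start, 5′ to 3′ in the direction of transcription, with E2F motifs in capitals (in E2F1 the first capitals are the end of a further motif). The first 9 belong to genes whose level in both mutant clones lay below that in both reverted clones, GINS1 and TYMS to genes in which it lay above, and PCNA to one in which the clones overlapped.
MCM2, chr3:127598402-127598431, plus strand: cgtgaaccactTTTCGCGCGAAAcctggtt
MCM3, chr6:52284728-52284757, minus strand: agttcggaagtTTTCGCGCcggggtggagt
MCM6, chr2:135876511-135876540, minus strand: ggtcaggTTTGGCGCGAAAtctccagctcc
MCM7, chr7:100101388-100101417, minus strand: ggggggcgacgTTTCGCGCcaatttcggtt
CDC6, chr17:40287875-40287904, plus strand: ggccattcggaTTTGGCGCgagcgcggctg
CDT1, chr16:88803743-88803772, plus strand: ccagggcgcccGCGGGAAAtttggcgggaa
DTL, chr1:212035729-212035758, plus strand: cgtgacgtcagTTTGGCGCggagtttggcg
E2F1, chr20:33686387-33686416, minus strand: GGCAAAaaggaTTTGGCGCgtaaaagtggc
E2F2, chr1:23531257-23531286, minus strand: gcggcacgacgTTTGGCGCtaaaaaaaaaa
GINS1, chr20:25407667-25407696, plus strand: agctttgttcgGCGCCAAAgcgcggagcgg
TYMS, chr18:657603-657632, plus strand: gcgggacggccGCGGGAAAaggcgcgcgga
PCNA, chr20:5126663-5126692, minus strand: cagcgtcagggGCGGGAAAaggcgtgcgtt

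In MCM2 and MCM6 motifs on the 2 strands overlap, so the 12 capitals in each count as 2 matches. MCM6, a subunit of the helicase ring, had the most matches of any of these windows, 4 in 2 overlapping pairs. They are shown in its upstream sequence, chr2:135876444-135876693 on the minus strand, which lies in no annotated exon: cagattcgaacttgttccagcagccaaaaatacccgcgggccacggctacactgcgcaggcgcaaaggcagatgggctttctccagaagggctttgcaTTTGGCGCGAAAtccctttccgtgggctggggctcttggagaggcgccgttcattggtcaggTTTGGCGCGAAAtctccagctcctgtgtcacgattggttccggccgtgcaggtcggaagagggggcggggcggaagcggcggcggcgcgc. An E2F motif was held by 9 of the 15 windows of genes that lay lower in both mutant clones, 2 of the 5 of genes that lay higher and 13 of the 28 of genes whose clones overlapped. The E2F match was thus found in genes of either direction, and its share in the 3 groups is given without a test.

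Libraries held between 35332727 and 46613068 expected counts (RSEM's estimate of reads per gene), and no replication gene had fewer than 225 counts in any library. The 50 most abundant genes took 25.55% to 27.39% of the counts in WT/WT and 20.5% to 21.47% in WT/C134W. Scaling by library total alone put the median log2 fold change of all genes tested, WT/C134W over WT/WT, at 0.23. The part of the abundant genes in this shift was not tested. Levels are therefore given as CPM after TMM scaling (counts scaled to a common library size and corrected for such a shift). Of the granulosa markers, NR5A1 had 43.6 to 50.1 CPM in WT/WT and 34.0 to 37.5 CPM in WT/C134W. INHBA had 155 to 201 CPM and 66.8 to 120 CPM in the same order, while FSHR, AMHR2, GATA4 and WT1 had 0 counts in every library. Of the 8 granulosa markers tested, 6 had a negative and 2 a positive log2 fold change (median -0.55). Of the markers of other cell types, CD3E, LYZ, CDH5, DDX4 and DAZL had 0 counts in every library, while CD68 had 63.9 to 73.8 CPM, TEK 1.45 to 11.4 CPM and KRT18 318 to 1420 CPM. Of 7 fibroblast markers 6 had a negative log2 fold change (median -1.16), among them COL1A1 with 20359 to 25181 CPM in WT/WT and 9199 to 10717 CPM in WT/C134W, and the summed TPM of the list was 8324 to 10190 against 4731 to 5517. Their part in the values below was not tested. FOXL2 itself had 7.40, 4.84 and 4.35 CPM in WT/WT and 9.30, 10.1 and 6.35 CPM in WT/C134W. Gene counts do not show which FOXL2 allele was transcribed, so they do not check the genotype.

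The replication genes showed no common shift between the genotypes. The median log2 fold change of the 55, WT/C134W over WT/WT, was -0.00, against 0.01 for the 16416 genes tested, and 27 were positive and 28 negative. Of the 55, 0 had an adjusted p under 0.05 in edgeR's quasi-likelihood test with Benjamini-Hochberg adjustment over all genes, where 0% of all genes tested were called. DESeq2 called 1 of the 55 (CDT1) against 1.72% of all genes, edgeR on all 6 libraries called 2 (CDT1 and E2F1) against 3.18%, and edgeR with no filter on low counts called 0 against 2.73%. At an unadjusted p under 0.05 stood 6 of the 55 (10.9%) against 7.57% of all genes, 2 of them higher (background 2.88%) and 4 lower (background 4.7%), so the group is near the background. With 1 clone left out, the median log2 fold change of the 55 ran from -0.08 (without 44b) to 0.02 (without 44a). Those fits leave 1 clone on a side, so the count under this p is not given for them. In a bulk library, a difference in the share of cells that are in S phase and a difference in RNA per cell cannot be told apart.

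For most of these genes the fit bounded the difference between these clones. The median SE of the log2 fold change was 0.18 over the 55 genes and 0.30 over all genes tested (SE from edgeR's F value, which shares the spread across genes). For 51 of the 55 (92.7%) the 95% interval of the fold change stayed within 2-fold in either direction, against 45.4% of all genes, and for 21 it stayed within 1.5-fold. All 55 had at least 225 counts in every library, and the part of count level in this contrast was not tested. The 4 genes whose interval reached beyond 2-fold were ORC4, CDT1, GINS4 and E2F2. PCNA, the sliding clamp that holds polymerases on DNA, is an example of a narrow one. It had 208, 185 and 199 CPM in 44a, 4.72 and 4.72-44a and 187, 218 and 199 CPM in 3.11, 44b and 3.11-44b. The genotypes overlapped, and the log2 fold change was 0.04 with an interval of -0.37 to 0.45. FEN1, the flap nuclease that trims Okazaki fragments, and LIG1, the ligase that seals them, had log2 fold changes of 0.00 and 0.03, with intervals of -0.36 to 0.36 and -0.36 to 0.42.

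**Figure D2:**
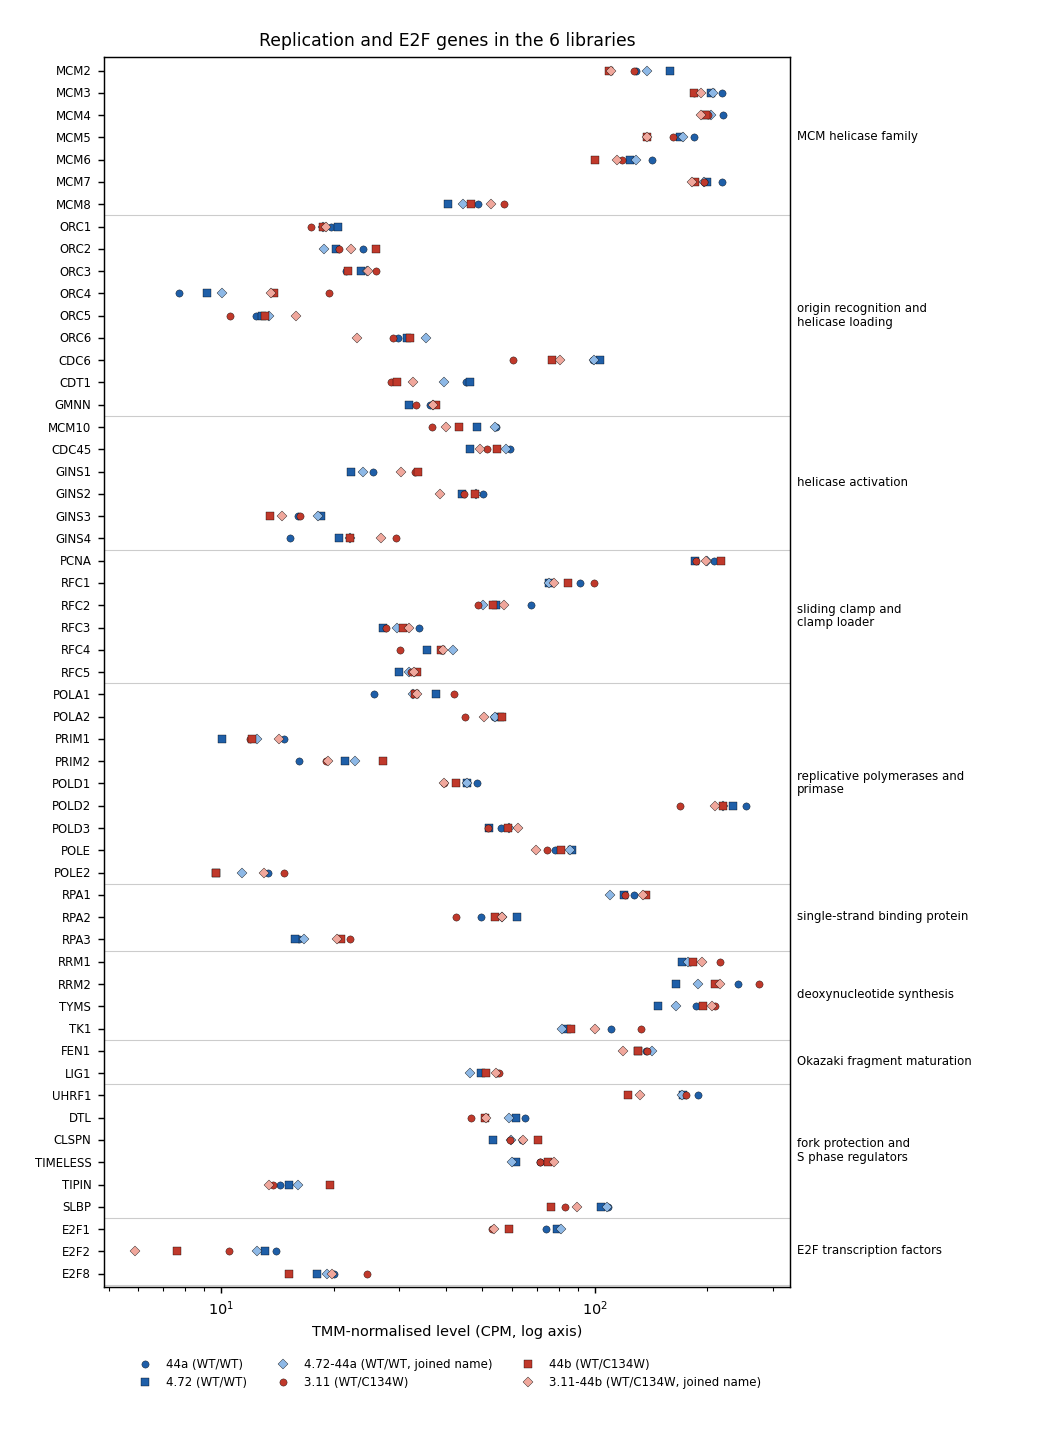
TMM-normalised level in CPM (log axis) of each of the 55 genes, by role, in the 6 libraries; blue is WT/WT, red WT/C134W, and pale diamonds are the libraries with joined names. The symbols of the 2 genotypes mix in most rows. Among the rows where they do not, E2F1, CDT1, CDC6 and SLBP are examples with all blue symbols to the right of the red ones. GINS1, RPA3 and ORC4 are examples with them to the left.

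The clones of the genotypes did not overlap in 23 of the 55 genes, a share similar to the 6505 of all 16416 genes tested. Both mutant clones lay below both reverted clones in 16 of the 55 genes (29.1%), where 19.7% of all genes tested did so, and above them in 7 (12.7%), where 19.9% did so. For 21 of these 23 the libraries with joined names differed in the same direction, the exceptions being ORC1 and RFC2, and of all genes tested 5187 of the 6505 without overlap did so. The clones of 1 genotype were farther apart than the genotype means in 38 of the 55 genes (69.1%), against 75.1% of all genes. The 16 lower genes were MCM2, MCM3, MCM5, MCM6, MCM7, MCM10, ORC1, CDC6, CDT1, RFC2, POLD1, POLD2, DTL, SLBP, E2F1 and E2F2, and the 7 higher were ORC4, GINS1, GINS4, RPA3, RRM1, TYMS and TIMELESS. With library totals alone, the all-gene median became 0.23 and the split 26 higher and 6 lower, and in TPM to 20 higher and 6 lower. CDC6, SLBP, E2F1 and E2F2 lay lower, and ORC4, GINS1, GINS4, RPA3, TYMS and TIMELESS higher, under TMM, median-ratio and library-total scaling and in TPM.

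**Figure D3:**
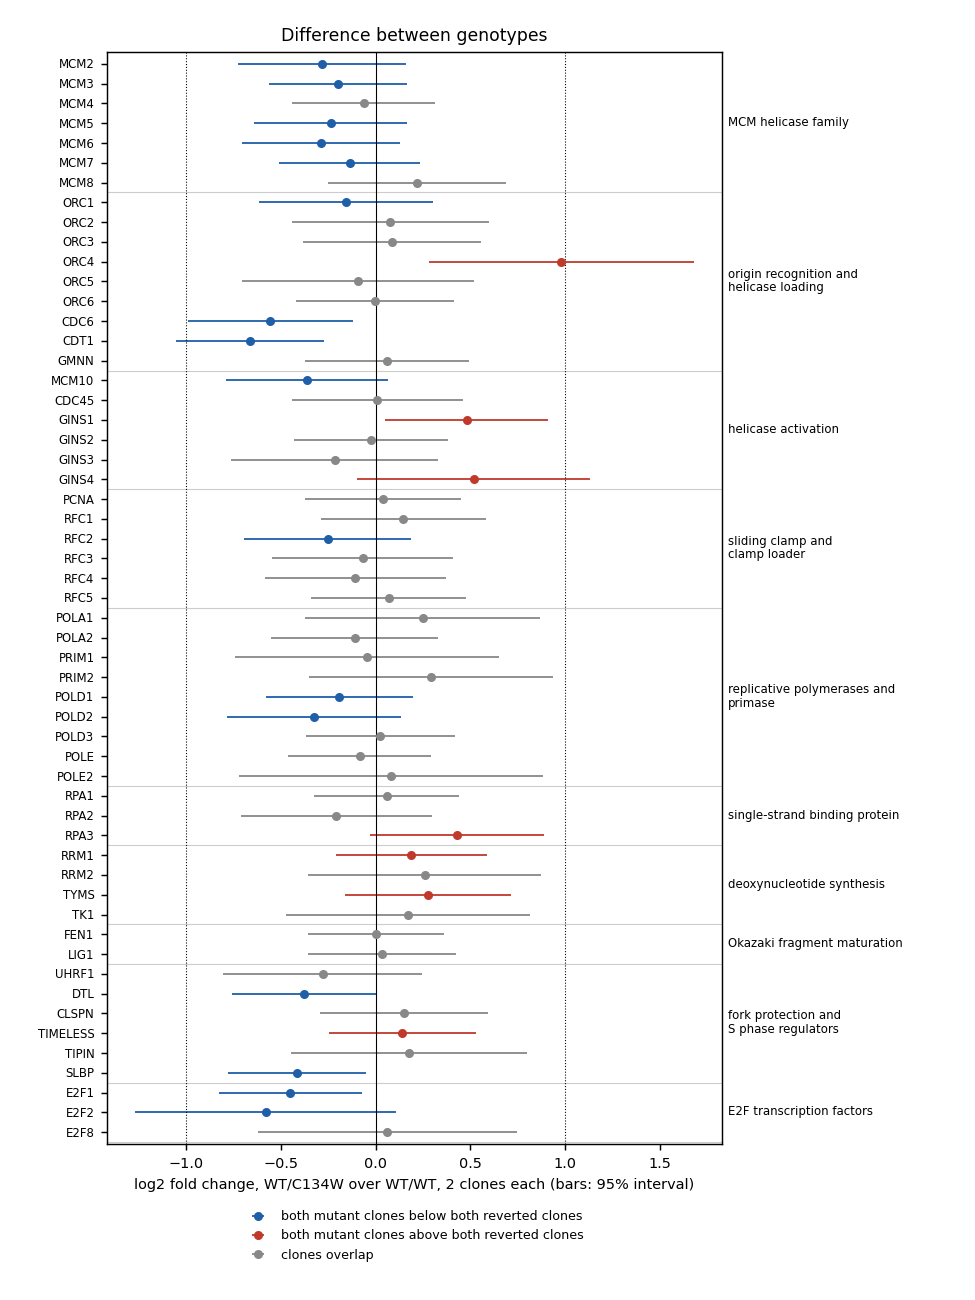
Log2 fold change of each gene, WT/C134W over WT/WT, from edgeR on 2 clones per genotype, with its 95% interval as a bar; blue and red mark genes in which the clones of the genotypes do not overlap, and dotted lines mark 2-fold. Of the 55 intervals, 51 lie between the dotted lines, and the lowest value is that of CDT1 (-0.66) and the highest that of ORC4 (0.98).

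The licensing factors CDT1 and CDC6 had the smallest unadjusted p among the lower genes. CDT1, which brings the MCM ring to the origin, had 45.3, 46.4 and 39.4 CPM in 44a, 4.72 and 4.72-44a and 28.4, 29.5 and 32.6 CPM in 3.11, 44b and 3.11-44b. All 3 WT/WT libraries lay above all 3 WT/C134W libraries, and clones of 1 genotype were within about 1 CPM of each other (45.9 ± 0.78 against 28.9 ± 0.77 CPM, mean ± SD, n = 2 clones). The log2 fold change was -0.66 ± 0.16 (SE), with an unadjusted p of 0.0062 and an adjusted p of 0.593 in edgeR's test. DESeq2 gave CDT1 an adjusted p of 0.0496 on the same clones, and edgeR on all 6 libraries, which takes the joined names as further clones, gave 0.0485; over all alternatives its adjusted p ran from 0.0485 to 0.999. In TPM the CDT1 clones overlapped, at 26.9 and 34.2 in the reverted and 28.1 and 21.3 in the mutant clones, while the effective length that RSEM assigned to CDT1 differed 1.60-fold between libraries. CDC6, the ATPase that loads the ring together with ORC, had 98.8, 103 and 99.5 CPM in WT/WT and 60.5, 76.9 and 80.7 CPM in WT/C134W. Its log2 fold change was -0.56 ± 0.18 (SE), and its adjusted p in edgeR's test was 0.633. GMNN, the inhibitor of CDT1, had 31.8 to 37.6 CPM with overlapping genotypes and a log2 fold change of 0.06 with an interval of -0.37 to 0.49.

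The origin recognition complex had members of either direction. ORC4, one of its subunits, had the smallest unadjusted p among the higher genes, with 7.69, 9.13 and 10.1 CPM in WT/WT and 19.4, 13.8 and 13.6 CPM in WT/C134W. The libraries did not overlap, although 3.11 stood well above the other mutant libraries. The log2 fold change was 0.98 ± 0.28 (SE), with an adjusted p of 0.598 in edgeR's test. Of its exon bases, 6.6% overlap ACVR2A or MBD5 on the opposite strand, and its count held fractions of reads in 4 of the 6 libraries. ORC1 had 19.7, 20.6 and 18.7 CPM in WT/WT and 17.4, 18.8 and 19.0 CPM in WT/C134W, so that its clones did not overlap while the joined libraries differed the other way, and its log2 fold change was -0.16. ORC2, ORC3, ORC5 and ORC6 had overlapping clones and values between -0.09 and 0.08.

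The E2F genes fell into different patterns. E2F1, an activator of the G1 to S programme, had 73.8, 79.1 and 81.5 CPM in WT/WT and 53.0, 58.9 and 53.7 CPM in WT/C134W. No mutant library reached any reverted one, and the log2 fold change was -0.45 ± 0.15 (SE) with an adjusted p of 0.647 in edgeR's test on the 4 clones. With all 6 libraries, edgeR's adjusted p for E2F1 was 0.0317, and over all alternatives it ran from 0.0317 to 1. E2F2, a second activator, was at the lowest level of all 55 genes, 3.25 TPM on average, and had 14.01, 13.1 and 12.4 CPM in WT/WT against 10.5, 7.63 and 5.88 CPM in WT/C134W. E2F8, a repressor that acts later in S phase, had 20.0, 18.1 and 19.2 CPM against 24.6, 15.2 and 19.8 CPM. For E2F8 the mutant clones stood on either side of the reverted ones, with a log2 fold change of 0.06 and an interval of -0.62 to 0.74. Of 16 other E2F, RB and DREAM complex genes given as a list by function, 10 had a positive and 6 a negative fold change (median 0.04). In edgeR's test 0 of the 16 had an adjusted p under 0.05 (0% of all genes) or an unadjusted one (7.57% of all genes). E2F3, a further activator, stood at -0.42, TFDP2, a dimerisation partner of the E2Fs, at 0.60, and LIN54, the CHR-binding subunit of DREAM, at 0.43. These 3 were named for the smallest unadjusted p of the list. The clones of the genotypes did not overlap in 6 of the 16 genes, these 3 among them, against 6505 of the 16416 genes tested.

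In the MCM helicase ring, all 6 subunits had a negative log2 fold change, from -0.29 to -0.06, and 5 lay lower without overlap, as 19.7% of all genes did. Of these 5, 0 kept that with library totals alone and only MCM3 did in TPM. MCM2 had 129, 159 and 138 CPM in WT/WT and 128, 110 and 110 CPM in WT/C134W. MCM6 had 142, 124 and 129 CPM against 118, 99.99 and 115 CPM. The remaining gaps were small, and for MCM2 the libraries 44a and 3.11 were all but equal. MCM3 had 220, 205 and 208 CPM in WT/WT against 185, 185 and 193 CPM. MCM5 had 184, 170 and 172 CPM against 162, 138 and 138 CPM. MCM7 had 219, 200 and 196 CPM against 195, 186 and 183 CPM, while MCM4, the subunit whose clones overlapped, had 221, 197 and 205 CPM against 202, 199 and 193 CPM. The smallest adjusted p in the ring was 0.758 in edgeR's test, for MCM6. With library totals alone 3 of the 6 values were positive, and on log2(TPM + 1) 2 were, although relative to the median of all genes 6 and 5 of them stayed below. MCM8, a helicase of homologous recombination that is not part of the ring, had a log2 fold change of 0.22 with overlapping clones.

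Genes of helicase activation split in direction. MCM10, which helps to start unwinding, had 54.4, 48.4 and 53.9 CPM in WT/WT and 36.8, 43.2 and 39.9 CPM in WT/C134W, a log2 fold change of -0.36 ± 0.17 (SE). GINS1, a subunit of the GINS tetramer, had 25.4, 22.3 and 23.9 CPM against 33.0, 33.5 and 30.4 CPM. Its libraries did not overlap, and the log2 fold change was 0.48 ± 0.17 (SE), with an adjusted p of 0.647 in edgeR's test. GINS4, of the same tetramer, had 15.3, 20.7 and 22.1 CPM in WT/WT against 29.4, 22.1 and 26.7 CPM in WT/C134W, with 44b at the level of the joined WT/WT library. GINS2, GINS3 and CDC45, the partner of GINS in the active helicase, had values of -0.03, -0.22 and 0.01. On log2(TPM + 1) the value of MCM10 was 0.01, and its effective length differed 1.33-fold between libraries.

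Most genes of the polymerases, the clamp loader and the single-strand binding protein had overlapping clones. POLD2, the accessory subunit of polymerase delta, had 254, 235 and 220 CPM in WT/WT against 169, 220 and 210 CPM in WT/C134W, where 3.11 alone stood well below the rest. POLD1, the catalytic subunit, had 48.3, 45.4 and 45.4 CPM against 39.5, 42.5 and 39.5 CPM, a log2 fold change of -0.19. POLA1, POLA2, PRIM1, PRIM2, POLD3, POLE and POLE2 had overlapping clones and values from -0.11 to 0.29. The 5 subunits of the clamp loader, RFC1 to RFC5, lay between -0.25 and 0.15. RPA3, the small subunit of the single-strand binding protein RPA, had 16.2, 15.8 and 16.7 CPM in WT/WT against 22.1, 20.9 and 20.4 CPM in WT/C134W. Its libraries did not overlap, and the log2 fold change was 0.43 ± 0.19 (SE), with an adjusted p of 0.681 in edgeR's test. RPA1 and RPA2, the larger subunits, had 0.06 and -0.21.

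The 4 genes of deoxynucleotide synthesis all had positive fold changes, with a median of 0.22. In edgeR's test 0 of them had an unadjusted p under 0.05, against 7.57% of all genes. RRM2, the ribonucleotide reductase subunit made in S phase, stood at 241, 164 and 189 CPM in WT/WT and 276, 210 and 216 CPM in WT/C134W. The gap between 44a and 4.72 was wider than that between the genotype means, and 44a lay above 44b. TYMS, which makes thymidylate, had 186, 148 and 165 CPM against 210, 194 and 206 CPM, without overlap. Of its exon bases 46.6% overlap ENOSF1 or TYMSOS on the opposite strand, and with the strand setting of the counting not given in the sources used here the reads of these genes may not be separate. RRM1, the large reductase subunit, had 180, 171 and 177 CPM against 216, 184 and 194 CPM, and TK1, thymidine kinase, had 84.2 and 111 CPM in the reverted and 86.3 and 133 CPM in the mutant clones. Without 4.72 or without 3.11 the median of the 4 genes was 0.06, and 3 of the 4 stayed positive. It was 0.4 without 44a and 0.38 without 44b, with all 4 positive in both. In the same part of metabolism, a list of 10 further genes had 6 positive values and a median of 0.20. Of these 10, 2 had an unadjusted p under 0.05 in edgeR's test, both higher, against 2.88% of all genes, and 0 were called. RRM2B, the reductase subunit induced by p53, had 19.9, 18.2 and 17.9 CPM in WT/WT and 33.9, 39.8 and 45.6 CPM in WT/C134W, a log2 fold change of 0.95 ± 0.18 (SE). DTYMK, the thymidylate kinase, had a log2 fold change of 0.57.

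Among the regulators of S phase, SLBP and DTL were the lower ones. SLBP, which binds the stem-loop of histone messages, had 109, 104 and 108 CPM in WT/WT and 83.4, 76.4 and 89.7 CPM in WT/C134W. No mutant library reached a reverted one, and the log2 fold change was -0.41 ± 0.15 (SE), with an adjusted p of 0.647 in edgeR's test. DTL, the substrate receptor through which CDT1 is degraded in S phase, had 65.2, 61.5 and 58.9 CPM against 46.5, 50.9 and 51.1 CPM, and its log2 fold change was -0.38 ± 0.15 (SE). In TPM the DTL clones overlapped, with an effective length that differed 1.60-fold between libraries. TIMELESS, of the fork protection complex, had 71.3, 61.4 and 60.1 CPM against 71.3, 75.0 and 78.0 CPM, so that 44a and 3.11 were equal to the digits shown. Its partner TIPIN and the checkpoint mediator CLSPN had 0.18 and 0.15 with overlapping clones. UHRF1, which maintains DNA methylation behind the fork, had 189, 173 and 171 CPM against 175, 123 and 132 CPM, with 3.11 among the reverted libraries.

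The further genes of the pathway, given as lists by function, were also of either sign. Of 13 origin firing and helicase regulators 6 were positive (median -0.01), with DBF4B, a regulatory subunit of the CDC7 kinase, at 0.98, MCMBP, an MCM chaperone, at -0.40 and WDHD1, which couples polymerase alpha to the helicase, at 0.31. Of 21 other fork, maturation and chromatin assembly genes 12 were positive (median 0.12). ASF1A, a histone chaperone, had 15.5, 13.3 and 13.9 CPM in WT/WT and 27.9, 25.2 and 23.8 CPM in WT/C134W, a log2 fold change of 0.89 ± 0.19 (SE) with an adjusted p of 0.577 in edgeR's test, while CHAF1A, a subunit of another chaperone, stood at -0.39 and ATAD5, which unloads PCNA, at 0.91. Of 13 S phase cyclin, CDK and checkpoint genes 5 were positive and 8 negative (median -0.06). CCNE2, the G1 to S cyclin E2, had 37.4, 35.7 and 39.4 CPM against 25.4, 22.4 and 23.4 CPM, a log2 fold change of -0.61 ± 0.17 (SE). CDC25A, the phosphatase that activates CDK2, stood at -0.70, and CCNA2, the cyclin of S and G2, at 1.12. In these 3 lists 0 genes were called in either direction by edgeR's adjusted p.

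Genes of G2 and mitosis stood apart from this in level, though by no test of the difference. The values of all 25 were positive (median 1.07), against 50.6% of all genes. Both mutant clones lay above both reverted clones in 24, against 19.9% of all genes. By edgeR's adjusted p 0 were called, and 12 had an unadjusted p under 0.05, all higher, against 2.88% of all genes. The median was 0.57 without 3.11, 0.69 without 4.72, 1.38 without 44b and 1.46 without 44a. TTK, PTTG1 and CENPE, of the spindle checkpoint, chromatid cohesion and the kinetochore, had 1.07, 1.49 and 1.58. For 0 of the 25 did the 95% interval stay within 2-fold, where it did so for 51 of the 55 replication genes. The values of single libraries show where this lies. Relative to the mean of the 4 clones, the median of the G2 and M phase genes was -0.12 in 44a, -0.92 in 4.72, 0.95 in 3.11 and 0.09 in 44b on the log2 scale. The median of the 55 replication genes stayed between -0.05 and 0.06 in the same 4 clones. The nucleotide synthesis genes had 0.07, -0.29, 0.27 and -0.04 in 44a, 4.72, 3.11 and 44b, in the same order of clones as the G2 and M phase genes except that 44a stood above 44b. The 3 E2F genes had 0.18, 0.25, -0.07 and -0.34. Whether the share of cells in each phase moved with any of these values was not tested.

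**Figure D4:**
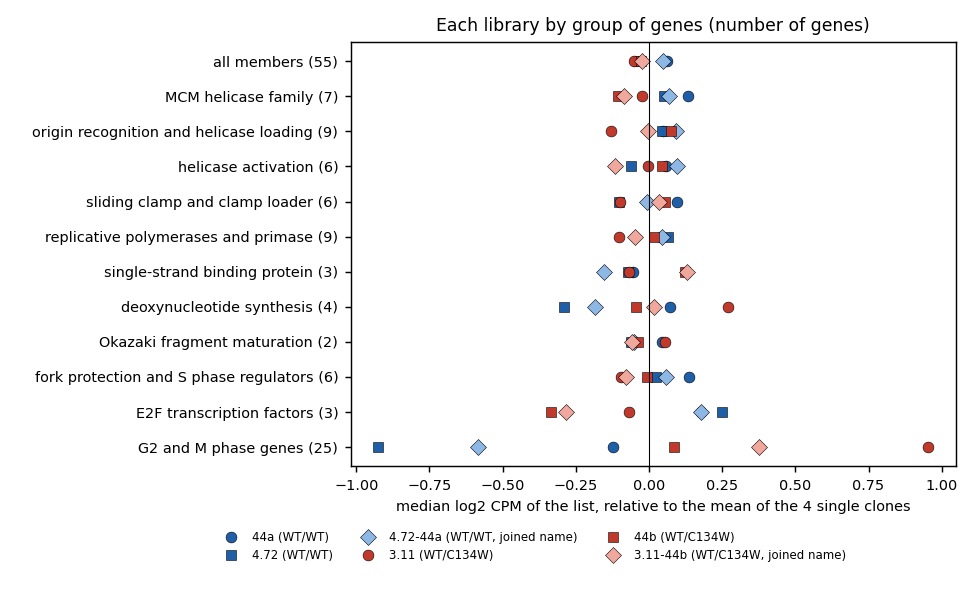
Median log2 CPM of each group of genes in each library, relative to the mean of the 4 single clones (number of genes in brackets); blue is WT/WT, red WT/C134W, pale diamonds the joined names. The 55 replication genes ("all members") stay within -0.05 to 0.06, whereas the G2 and M phase genes run from -0.92 in 4.72 to 0.95 in 3.11.

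The libraries with joined names gave a further reading of each gene. For WT/WT the joined library lay between 44a and 4.72 in 29 of the 55 genes, above both in 13 and below both in 13, and for WT/C134W it lay between 3.11 and 44b in 27, above in 14 and below in 14. The median gap between the clones was 0.15 on the log2 scale in WT/WT and 0.22 in WT/C134W, and the joined library differed from the mean of its clones by a median of 0.08 and 0.10. In WT/WT, 44a was the higher clone in 38 of the 55 genes, and in WT/C134W 3.11 was the higher in 25.

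Levels of different genes were compared in TPM, which is scaled by effective length. The averages over the 6 libraries ran from 3.25 TPM for E2F2 to 265 TPM for POLD2, with a median of 38.4 TPM. Above 100 TPM stood 11 genes: POLD2, PCNA (243), MCM4 (210), TYMS (205), RRM2 (177), MCM5 (130), MCM7 (116), SLBP (112), MCM3 (110), RRM1 (109) and TK1 (102). Under 10 TPM stood E2F2, ORC1 (9.17) and E2F8 (9.94). The transcripts of subunits of 1 complex stood at unlike levels. Within the MCM2-7 ring MCM4 was the highest and MCM6 (48.8 TPM) the lowest in all 6 libraries, 4.31-fold apart on average. Within ORC the lowest was ORC1, the subunit that is regulated in the cell cycle, in all 6 libraries, and ORC6 (30.0 TPM) was the highest in 5. POLA2 (49.4 TPM) stood 4.72-fold above POLA1 (10.5 TPM), the catalytic subunit of polymerase alpha, and POLD2 8.39-fold above POLD3 (31.5 TPM). The 3 subunits of RPA differed 1.29-fold on average, between RPA1 (56.3 TPM) and RPA3 (43.5 TPM). Within a library the RPA subunits spanned 1.5-, 1.91- and 1.59-fold in 44a, 4.72 and 4.72-44a and 1.1-, 1.08- and 1.25-fold in 3.11, 44b and 3.11-44b. RRM2 exceeded RRM1 in all 6 libraries, by 1.73-, 1.32- and 1.27-fold in 44a, 4.72 and 4.72-44a and by 1.85-, 1.69- and 1.70-fold in 3.11, 44b and 3.11-44b. Effective lengths moved between libraries by a median of 1.18-fold and by over 1.2-fold in 25 of the 55 genes. TPM is corrected for this length and CPM is not, while CPM here carries the TMM scaling and TPM does not. The 2 measures can therefore differ in either respect, also for a gene whose length is steady.

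**Figure D5:**
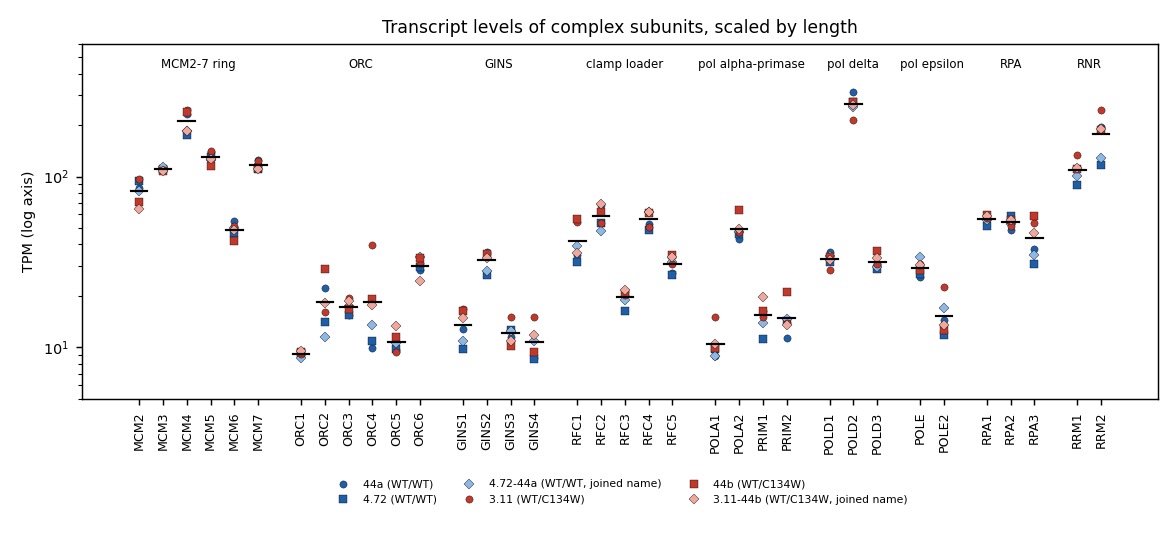
TPM (log axis) of each subunit of 9 replication complexes in the 6 libraries, with the mean as a bar; RNR is ribonucleotide reductase, pol is polymerase, blue is WT/WT and red WT/C134W. MCM6 is the lowest subunit of the ring and MCM4 the highest in every library, and POLD2 is above POLD1 and POLD3 in every library.

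Some of these counts may be shared with neighbours. Exons of 18 of the 55 genes overlap exons of a gene on the opposite strand, and of 7 those of a gene on the same strand. After TYMS the largest overlaps were 23.6% of the exon bases of MCM2 (TPRA1 and AC023593.1) and of GINS4. Counts held fractions of reads in at least 1 library in 13 genes, and in all 6 libraries in RRM2, TYMS, UHRF1 and RFC5.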

How the data were processed

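All 6 samples went through a stranded mRNA library kit, per the labels' protocols. The deposited tables give, per the file headers, RSEM's expected count, TPM and FPKM for every gene. Expected counts are unscaled estimates of reads per gene by the authors, TPM values are scaled by the authors to effective length and library, and the deposited FPKM values were not used. RSEM 1.3.1 and STAR 2.7.6a are named, with no role, in the submitters' processing notes, as is the mouse build GRCm38, although the gene IDs are human. For annotation release and strand setting, the sources used here give nothing. Symbols came from GENCODE release 29 (58216 of 58336 IDs). Coordinates are GRCh38.

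Expected counts were rounded, passed through filterByExpr and TMM, and compared on the 4 single-clone libraries by the robust quasi-likelihood test of edgeR 4.0.16 (R 4.3.3). Adjusted p-values (Benjamini-Hochberg) under 0.05 were called. CPM values are TMM-scaled over the 6 libraries. Depth ran from 35332727 to 46613068 counts, so that 3 counts equal 0.0644 to 0.0849 CPM (counting error only). The labels do not say whether libraries are separate cultures, so p-values measure the spread between these clones. All 6 values are given for genes without overlap between genotypes whose joined libraries differ the same way, the 2 smallest p in each direction, E2F1, E2F2, E2F8, PCNA and RRM2, and up to 3 genes with the smallest p are named from each further list. Some other genes were added after their values were seen. Some items are not reported here. The genes and lists were chosen with earlier results of these data known. Alternatives used DESeq2 1.42.0, limma 3.58.1 (voom, and log2 of TPM plus 1 or 0.1), other scalings and filters, a replicate block and left-out libraries.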

Additional observations from a re-analysis of the deposited data

How the results depend on the processing

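Of 360 values of single genes (24 genes under 15 alternatives), 344 kept their direction and stayed on the same side of the threshold, 3 passed it and 13 changed sign. The count of replication genes with an adjusted p under 0.05, 0 in edgeR on the 4 clones, was 1 with DESeq2 (CDT1) and 2 with all 6 libraries (CDT1 and E2F1), and 0 under the other alternatives. The count of all genes called was 283 with DESeq2, 511 with all 6 libraries and 664 without a filter on low counts. With library totals alone the median of the replication genes was 0.22, in place of -0.00, with 26 genes higher and 6 lower without overlap, and the median of all genes moved to 0.23. With log2(TPM + 1), log2(TPM + 0.1) and log2(TPM + 1) without a filter the median was 0.17 in each, with 20 higher and 6 lower. The all-gene medians were 0.14, 0.16 and 0.07 in that order. Genes without overlap were counted over all genes only under TMM scaling, so the counts under library totals and TPM have no background beside them. Signs turned for MCM3 (0.02), MCM7 (0.09) and POLD1 (0.03) with library totals alone, and for MCM7 (0.00) and MCM10 (0.01) in all 3 TPM fits. Leaving out 1 library gave a median from -0.08 to 0.02. With 1 clone left on a side, 10 to 23 genes lay higher without overlap and 19 to 24 lower. The higher counts were 23 without 44a, 19 without 3.11 and 17 without 44b. No overlap is easier to reach with 1 clone on a side, and the same counts over all genes were not made. In these fits PCNA ran from -0.08 to 0.15 and E2F8 from -0.32 to 0.36. Without 4.72 only 17 of the 55 values were positive, in place of 27. A replicate block (44a paired with 44b by the like names, 4.72 with 3.11) gave 0 calls among these genes and a median of -0.00, and the labels do not state such a pairing. With 2 of the E2F motifs, the share of windows was 45.8%, against 3.7% of the windows of genes tested, and with the core CCCGCC 81.2%, against 68.8%. All these genes had at least 225 counts in every library, and each genotype had 2 clones.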

Other observations

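Some pairs of these genes were compared in TPM within each library. The ratio of CDC6 to ORC1 was 7.60, 8.23 and 7.87 in 44a, 4.72 and 4.72-44a and 6.02, 6.65 and 7.63 in 3.11, 44b and 3.11-44b. The ratio of E2F8, a repressor, to E2F1, an activator, was 0.20, 0.19 and 0.22 in the reverted and 0.39, 0.23 and 0.28 in the mutant libraries, so that no WT/C134W library lay below a WT/WT one. The ratio of MCM8 to MCM2 was 0.18, 0.14 and 0.17 against 0.21, 0.23 and 0.26, again without overlap, whereas the ratio of CDT1 to its inhibitor GMNN, 0.45, 0.68 and 0.36 against 0.47, 0.33 and 0.35, overlapped. These 4 ratios were picked after the levels of the genes had been seen and were not tested.

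The 55 genes together took 0.42%, 0.367% and 0.385% of the counts in 44a, 4.72 and 4.72-44a and 0.449%, 0.432% and 0.434% in 3.11, 44b and 3.11-44b. Their summed TPM was 3376, 2926 and 3040 against 3526, 3384 and 3293. The share of counts is not corrected for the most abundant genes, which took more of the WT/WT libraries. The summed TPM of the 25 G2 and M phase genes was 1499, 852 and 1062 in the reverted and 3437, 1907 and 2353 in the mutant libraries. The share of counts in mitochondrial genes, 6.71%, 5.53% and 6.14% against 5.12%, 5.5% and 5.89%, overlapped between genotypes, and its part in these values was not tested.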
